A study of Mus musculus with 41 samples.

Results

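Histone genes make up a family of 61 genes among the 55453 that the authors' deposited tables list. They were chosen by symbol (names that begin with Hist1h to Hist4h, H2af, H1f or H3f) and by a mean normalised count of at least 1 over the libraries. Of these, 49 are replicative genes of the Hist clusters, 11 are variant genes, and 1 is H3f3aos, by its name an antisense RNA of H3f3a, which is counted with neither class. A further 26 symbols stayed under the mean of 1, and 11 of these were listed at 0. The 4 pseudogene symbols with the ending -ps, with or without a number, were left out; H3f3a-ps1, the 1 of them with an adjusted p, passed no test in the authors' deposited tables (adjusted p = 0.42 in TAM, 0.99 in inflammatory monocytes, 0.45 in granulocytes).

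The cells came from rectal tumours in female C57BL6 mice, grown from the colon carcinoma line MC38 with a luciferase gene (MC38-luc). The age of the mice is not given in the sources used here. Irradiation of 5 Gy a day was given 5 times, on days 9 to 13, untreated tumours received none, and every tumour was taken on day 14. Sorting of CD45+ CD11b+ cells gave tumour-associated macrophages (TAM, Ly6C- Ly6G- F4/80+, 5 untreated and 10 irradiated tumours), inflammatory monocytes (Ly6C+ Ly6G-, 5 and 9) and granulocytes (Ly6C+ Ly6G+, 5 and 7). Each comparison sets irradiated against untreated tumours within 1 subset. The mice were of 1 strain and sex and carried 1 transplanted cell line. Libraries of the 3 subsets share tumour numbers, so their comparisons are not independent.

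Histones are the proteins around which DNA is wound, with H2A, H2B, H3 and H4 in the core of the nucleosome and H1 on the linker DNA between nucleosomes. Replicative histone genes are transcribed mainly during S phase, when new DNA has to be packed. Their mRNAs usually end in a stem-loop instead of a poly(A) tail, and this stem-loop is bound by the protein of the gene Slbp. Most variant histones are made throughout the cell cycle from polyadenylated mRNAs and replace the replicative forms at particular sites. H2afx, counted here as a variant by its symbol, has an annotated stem-loop of its own, so this description may not hold for it. In tumours, myeloid cells include newly arrived, non-dividing cells and locally dividing ones.

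The stem-loops are shown because they are the sequence feature that sets the replicative genes apart. The motif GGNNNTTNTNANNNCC, with all 6 base pairs of the stem required, was searched on the sense strand of the GENCODE M21 transcripts, an annotation of the build GRCm38. It was found in 69 of 21877 protein-coding genes (0.315%), and 47 of these 69 carry a histone symbol of the families above. Among the members it was found in 39 of 49 replicative genes and in 1 of 11 variants, H2afx. The stem began with GGCTCT in all 28 H1, H2A, H2B and H3 replicative genes that had a match. It began with GGCCCT in 10 of the 11 H4 genes with a match and in H2afx, and with GGTCCT in the remaining H4 gene, Hist1h4j. The most frequent form is shown for Hist1h2ab and was found in 20 members. The form of Hist1h4d was found in 7 members, all H4 genes, and the forms of H2afx and Hist1h3g in 1 member each. Letters are given 5′ to 3′ as DNA, with the 4 bases of the loop in capitals.
Hist1h2ab: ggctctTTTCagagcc
Hist1h4d: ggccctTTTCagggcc
H2afx: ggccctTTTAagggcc
Hist1h3g: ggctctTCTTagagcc

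Of the 10 replicative genes with no match, 6 (Hist1h2ai, Hist1h2ak, Hist1h2bn, Hist1h3h, Hist1h3i and Hist1h4k) have an annotated transcript that is only the coding part, so the search could not reach a stem-loop there. The other 4, Hist1h1a, Hist1h1b, Hist1h2bc and Hist2h2be, have transcripts longer than their coding part with no match to these letters. For each of the 39 genes with a match, the longest annotated protein-coding transcript with a match was used, so shorter annotated ends may exist. This transcript ran on for 3 to 4884 bases after the stem-loop, with a median of 155. For 17 genes this stretch was under 100 bases, as in Hist1h2ab (11 bases) and Hist1h2bb (23 bases). For 22 genes it was 100 or more, as in Hist1h4d (770 bases), Hist1h1c (840 bases), Hist3h2a (1643 bases) and Hist4h4 (2445 bases). H2afx has 822 bases after its stem-loop. Which of these ends was used in the sorted cells was not measured.

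Promoters of RefSeq (build GRCm38.p6) were at hand for 54 of the 61 members. The 250 bases before each start were searched for TATAA on the coding strand and for CCAAT and the octamer ATGCAAAT on both strands. TATAA was found in 25 of 44 replicative genes (56.8%), 2 of 10 variants (20%) and 18.4% of all 27025 genes of the promoter table. CCAAT was found in 35 of 44 replicative genes (79.5%), 5 of 10 variants (50%) and 37.5% of all genes. The octamer, the letters that OCT1 is known to bind in H2B promoters, was found in 10 of 44 replicative genes (22.7%), 1 of 10 variants (10%) and 1.81% of all genes. H3f3b was the variant with all 3 motifs. The 120 bases before the start are shown for genes whose values the results turn on, with matches in capitals (ATTGG and ATTTGCAT are the other-strand letters of CCAAT and the octamer).
Hist1h2ab (chr13:23750968-23751087, plus strand): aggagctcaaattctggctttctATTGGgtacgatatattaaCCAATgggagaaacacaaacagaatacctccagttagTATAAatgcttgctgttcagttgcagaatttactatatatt
Hist1h2bb (chr13:23746614-23746733, plus strand): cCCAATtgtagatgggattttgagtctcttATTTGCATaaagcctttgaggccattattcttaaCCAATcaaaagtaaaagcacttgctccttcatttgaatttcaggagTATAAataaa
Hist1h4d (chr13:23581448-23581567, plus strand): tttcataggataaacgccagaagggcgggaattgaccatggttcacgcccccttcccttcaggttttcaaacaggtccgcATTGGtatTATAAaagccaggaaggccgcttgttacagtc
Hist1h1c (chr13:23738687-23738806, plus strand): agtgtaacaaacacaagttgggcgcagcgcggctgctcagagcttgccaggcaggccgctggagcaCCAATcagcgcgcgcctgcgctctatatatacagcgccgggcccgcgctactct
H2afz (chr3:137864367-137864486, plus strand): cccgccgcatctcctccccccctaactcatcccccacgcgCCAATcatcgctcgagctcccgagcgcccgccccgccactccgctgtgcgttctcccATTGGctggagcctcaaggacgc
H3f3b (chr11:116024505-116024624, minus strand): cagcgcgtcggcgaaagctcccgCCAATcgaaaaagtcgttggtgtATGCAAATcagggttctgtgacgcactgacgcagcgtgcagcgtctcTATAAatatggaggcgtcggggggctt
H2afy2 (chr10:61783865-61783984, minus strand): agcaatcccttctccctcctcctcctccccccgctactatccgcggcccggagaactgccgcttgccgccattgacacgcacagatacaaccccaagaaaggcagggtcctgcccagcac

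All values below come from the authors' deposited tables of the 3 comparisons, which hold no values of single libraries, so no SD, standard error or read depth per library can be given. The mean normalised count is over all libraries of the fit and the same in each table, so it describes no single subset, and neither the levels in a subset nor the identity of a sort could be checked from it. Counts are not divided by gene length, so they do not rank genes. The log2 fold change was read as shrunken towards 0 by the authors, and the Wald statistic, which is the estimated effect over its standard error, gives the direction and its certainty. An adjusted p-value, which low-count genes lack, was present for 48 of the 61 members in TAM, 45 in granulocytes and 38 in inflammatory monocytes. A gene rose or fell here where the deposited adjusted p was under 0.05. In bulk RNA of a sorted subset, fewer cells that express a gene and less of its RNA per cell cannot be told apart.

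In TAM of irradiated tumours, replicative histone genes were lower. Of the 49 replicative genes, 21 fell and 0 rose in the authors' deposited table, where 12.5% of all genes tested fell and 13.9% rose. The 21 are 42.9% of the replicative genes, against 10.8% for all 19539 genes with a mean of at least 1. The deposited Wald statistic was below 0 for 44 of the 49 (89.8%), with a median of -2.57, against 46.5% and 0.13 for all 19539 genes. Log2 fold changes of the 21 genes in that table ran from -1.02 (Hist1h4i) to -2.75 (Hist1h2ab), with a median of -1.90. Of the 11 variants, all with an adjusted p, 3 fell (27.3%) and 2 rose (18.2%), and the median deposited Wald statistic was -0.29. The share that rose is near the 13.9% of all genes tested.

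**Figure D1:**
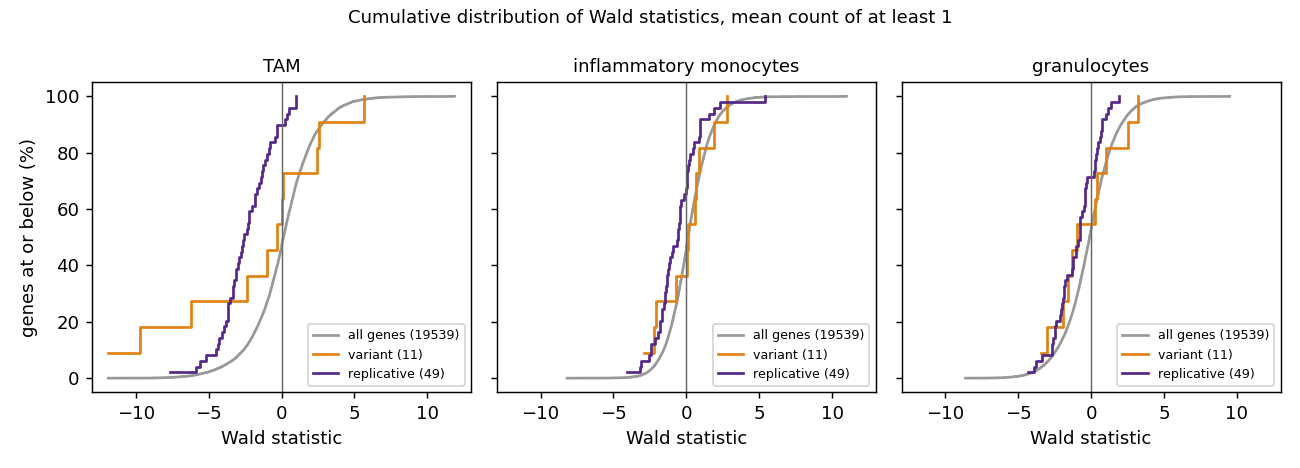
Cumulative share of genes (y axis, %) against the Wald statistic of the authors' deposited tables (x axis) in each subset, for 49 replicative genes, 11 variant genes and all 19539 genes that reach the same minimum. The replicative line lies left of the line of all genes by the widest margin in TAM, where 89.8% of replicative genes are below 0. The variant line in TAM runs from -11.90 to 5.67.

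The linker histone genes come first. Hist1h1e, 1 of the somatic H1 genes, fell in TAM (log2 fold change -2.10 in the authors' deposited table, Wald -5.87, adjusted p = 1.8e-07, mean normalised count 160). Hist1h1b fell as well (-2.67, Wald -4.52, adjusted p = 9.3e-05), as did Hist1h1a (-2.39, Wald -4.09, adjusted p = 0.00047) and Hist1h1d (-1.84, Wald -3.69, adjusted p = 0.0018), all as deposited by the authors. Hist1h1c, a further somatic H1 gene with a mean of 1419, had a deposited log2 fold change of 0.24 in TAM (Wald 1.00, adjusted p = 0.51), and thus passed no test. Its deposited Wald statistic was 0.08 in inflammatory monocytes and -1.04 in granulocytes. Hist1h1t, the testis H1 gene of the cluster, has a mean of 1.86 and no adjusted p. So 4 of the 6 H1 genes of the clusters fell in TAM. Among the transcripts, Hist1h1a and Hist1h1b have no stem-loop match, and Hist1h1c, Hist1h1d and Hist1h1e share 1 stem-loop sequence.

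Of the 8 replicative H2A genes, 6 fell in TAM. In the authors' deposited table Hist1h2ae had a log2 fold change of -2.56 (Wald -5.61, adjusted p = 6.9e-07, mean 78.8). Hist1h2ab, whose octamer match lies further upstream than the promoter bases printed above, had a deposited value of -2.75 (Wald -5.20, adjusted p = 4.8e-06, mean 10.6). Hist2h2ac, in the second cluster, had a deposited value of -1.66 (Wald -3.94, adjusted p = 0.00081). Hist1h2ac, Hist1h2ai and Hist1h2ag also fell, with deposited adjusted p-values of 0.0058, 0.013 and 0.035. With adjustment over every gene that has a p-value, Hist1h2ag had an adjusted p of 0.065, so its call does not hold there. The gene of the third cluster, Hist3h2a, with a mean of 204, had a deposited Wald statistic of 0.54 in TAM (adjusted p = 0.75), 1.58 in inflammatory monocytes and 1.92 in granulocytes.

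Of the 13 replicative H2B genes, 5 fell in TAM. They were Hist1h2bj (log2 fold change -2.22 in the authors' deposited table, Wald -4.30, adjusted p = 0.00022), Hist1h2bb (-2.17, Wald -3.83, adjusted p = 0.0012), Hist1h2be (-1.32, Wald -3.66, adjusted p = 0.002), Hist1h2bg and Hist1h2bm. Hist1h2be is the 1 of these with a mean above 100 (193). Hist1h2bk had a deposited Wald statistic of -4.35 and a log2 fold change of -3.12 in TAM, but its mean of 2.45 left it with no adjusted p, so it counts among the genes not tested. Hist1h2bc and Hist2h2be, the H2B genes without a stem-loop match, had deposited log2 fold changes of 0.21 and -0.37 in TAM with adjusted p-values of 0.50 and 0.49.

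The H3 genes were the type with the fewest calls in TAM: 1 of 10 fell, Hist1h3c (log2 fold change -2.58 in the authors' deposited table, Wald -3.66, adjusted p = 0.002, mean 5.73). The deposited Wald statistic was below 0 in 9 of the 10, with a median of -2.13, and 3 of the 10 had no adjusted p. Of the 7 with an adjusted p, 14.3% fell, against 12.5% of all genes tested. As a measure of depth, not of level, the median of the mean counts of the H3 genes was 4.64. It was 59.3 for H1, 12.1 for H2A, 9.25 for H2B and 21.3 for H4 genes. Whether H3 genes differ from the other types was not tested.

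Of the 12 replicative H4 genes, 5 fell in TAM and the deposited Wald statistic was below 0 in all 12. Hist1h4d had the lowest Wald statistic of any replicative gene in that table, -7.63, with a log2 fold change of -1.92 (adjusted p = 3.9e-12, mean 141). Hist1h4i, Hist1h4h, Hist1h4c and Hist1h4m fell with deposited log2 fold changes from -1.02 to -1.17 and adjusted p-values from 0.0028 to 0.031. The call of Hist1h4m does not hold with adjustment over every gene that has a p-value (adjusted p = 0.058). Hist4h4, the single gene of the fourth cluster, had a deposited Wald statistic of -0.77 in TAM (adjusted p = 0.63). By cluster, 20 of 42 Hist1 genes, 1 of 4 Hist2 genes, 0 of 2 Hist3 genes and 0 of 1 Hist4 gene fell in the authors' deposited table for TAM.

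**Figure D2:**
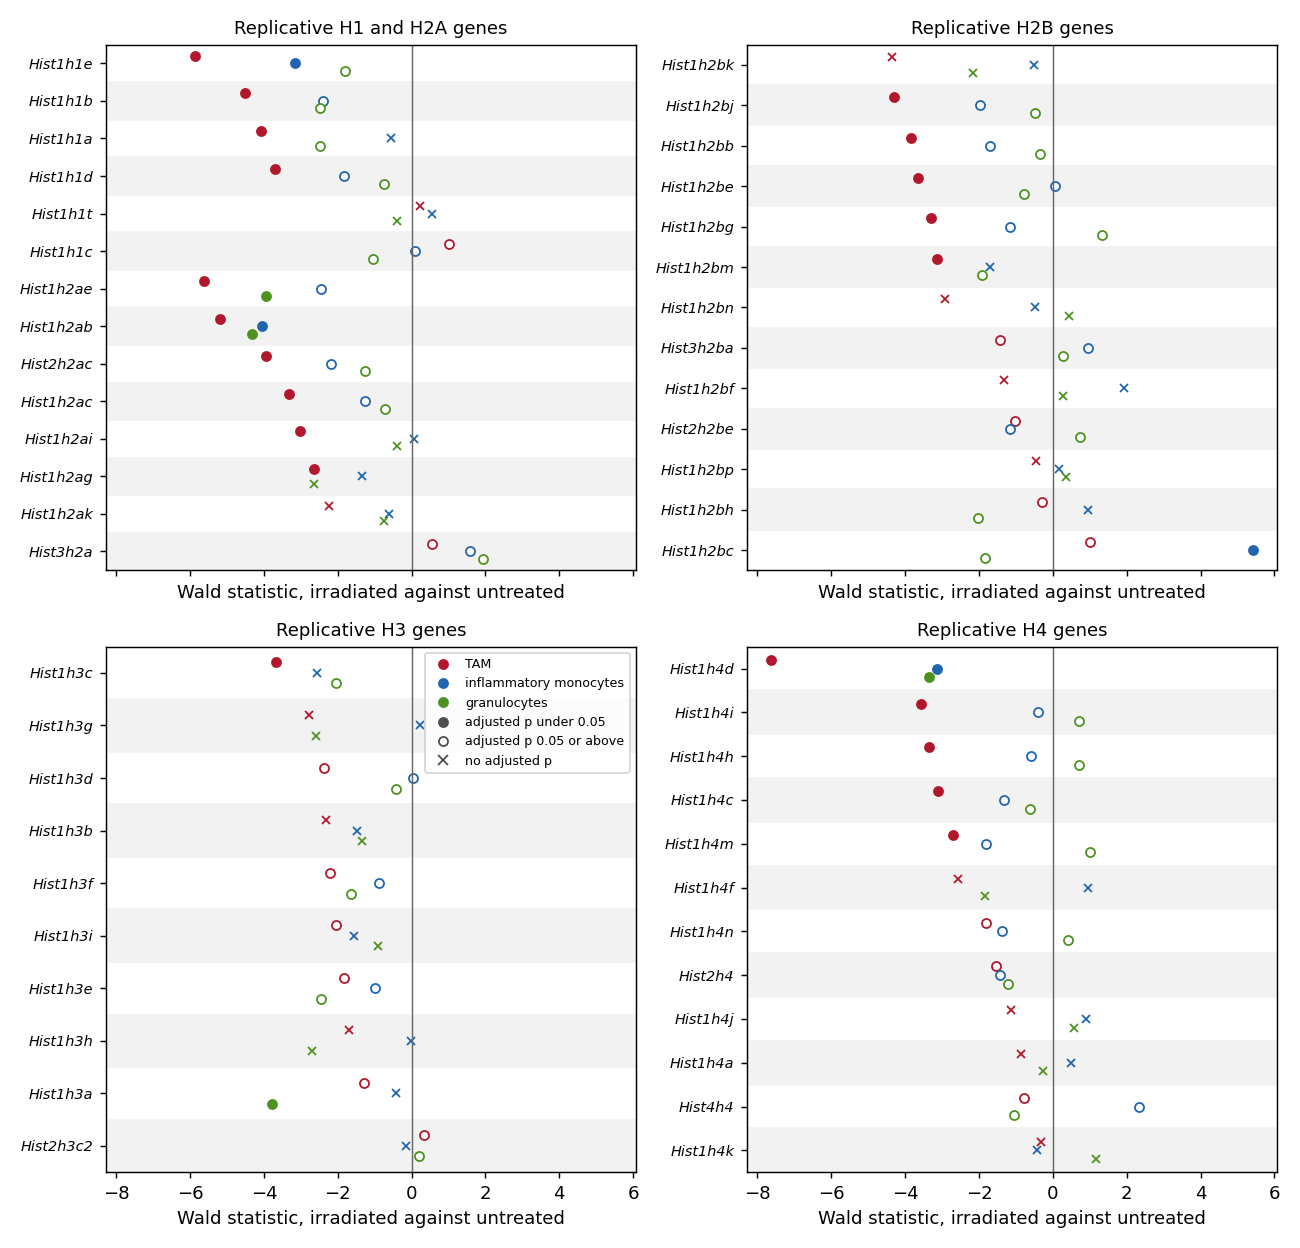
Wald statistics of the authors' deposited tables (x axis) for the 49 replicative genes, in 4 panels by histone type and ordered by the value in TAM. Colours stand for the subsets, filled points for an adjusted p under 0.05, open points for 0.05 or above and crosses for no adjusted p; most filled points are those of TAM, left of 0, and the 1 filled point right of 0 is Hist1h2bc in inflammatory monocytes.

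Replicative genes with a short stretch after the stem-loop and those with a long one both included genes that fell in TAM. Of the 17 genes with under 100 bases after it, 9 fell, with a median deposited Wald statistic of -2.79, and all 17 statistics were below 0. Only 11 of the 17 had an adjusted p, and 81.8% of those fell, against 12.5% of all genes tested in TAM. Of the 22 genes with 100 bases or more, 9 fell, with a median of -2.03, and 18 were below 0. An adjusted p was present for 19 of the 22, and 47.4% of those fell. The 4 genes with a Wald statistic above 0 in that group were Hist1h1c, Hist3h2a, Hist2h3c2 and Hist1h1t. The median mean count was 4.25 in the first group and 34.7 in the second, so both groups also differ in depth. This split was chosen after the values were seen, and the difference between the groups was not tested. The gene of the lowest Wald statistic, Hist1h4d, has 770 bases after its stem-loop, and Hist1h1d has 4884.

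**Figure D3:**
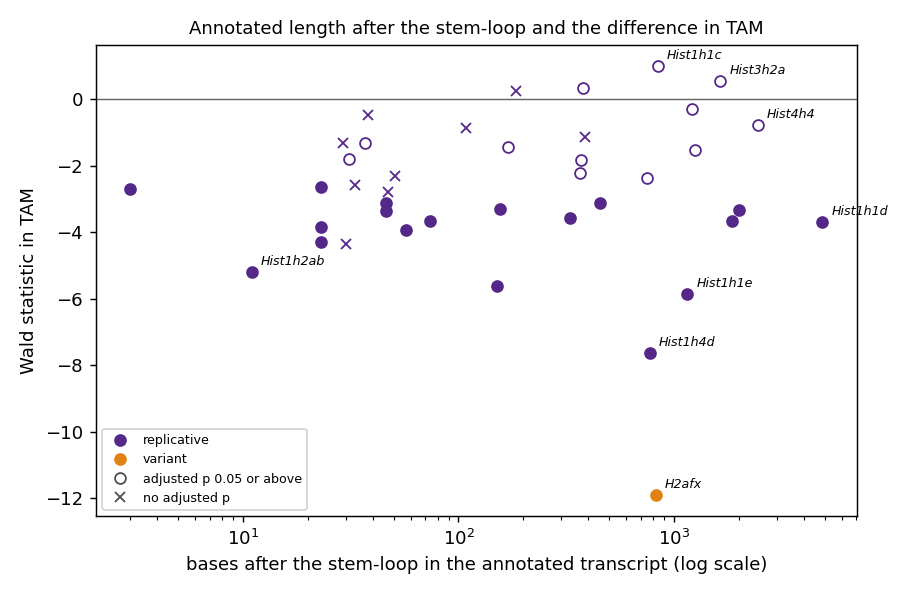
Wald statistic in TAM from the authors' deposited table (y axis) against the annotated bases after the stem-loop (x axis, log scale) for the 39 replicative genes with a match and for H2afx. Filled points have an adjusted p under 0.05, open points 0.05 or above, and crosses none; genes that fell lie along the whole range from 3 to 4884 bases, and H2afx is lowest at -11.90.

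By promoter letters, 13 of the 25 replicative genes with TATAA and 8 of the 19 without it fell in the authors' deposited table for TAM, with median Wald statistics of -2.69 and -2.79. For CCAAT these were 18 of 35 genes with it and 3 of 9 without it, with medians of -3.02 and -1.80. For the octamer they were 8 of 10 with it and 13 of 34 without it, with medians of -3.75 and -2.34. The genes with the octamer also had the higher median count, 15.3 against 5.29. All 10 of them are H2A or H2B genes, and the 9 genes without CCAAT are H4 genes apart from Hist2h3c2. The groups thus differ in histone type as well. The differences between these groups of genes were not tested.

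Among the variants, 3 genes of the H2A family fell in TAM. H2afx encodes H2AX, which is phosphorylated around DNA double-strand breaks. The authors' deposited table gives it a log2 fold change of -2.12 (Wald -11.90, adjusted p = 1.3e-28, mean 625), the lowest Wald statistic of all 61 members. H2afx is also the 1 variant with the stem-loop of the replicative genes. H2afz, which encodes H2A.Z, a variant found around transcription start sites, had a deposited log2 fold change of -1.11 (Wald -9.72, adjusted p = 3.5e-19, mean 4170). H2afv encodes a second H2A.Z protein and had a deposited log2 fold change of -1.0 (Wald -6.19, adjusted p = 3.3e-08, mean 619). Neither H2afz nor H2afv has a match to the stem-loop.

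The 2 variants that rose in TAM were H2afy2 and H3f3b. H2afy2 encodes macroH2A2, a large H2A variant with an added macrodomain that is known from silent chromatin. The authors' deposited table gives it a log2 fold change of 2.19 (Wald 5.67, adjusted p = 5.2e-07, mean 22.0). H3f3b encodes the replacement histone H3.3, and its value in the deposited table was 0.36 (Wald 2.54, adjusted p = 0.044). With the median Wald statistic of genes with a mean of at least 50 taken off, the adjusted p of H3f3b in TAM was 0.073, so this call does not hold under that centring. H3f3a, which encodes the same protein, had a deposited log2 fold change of 0.01 in TAM (Wald 0.10, adjusted p = 0.96).

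The other variants passed no test in TAM. H2afj, an H2A variant gene, had a deposited Wald statistic of -2.34 (adjusted p = 0.067). H2afy, the gene of macroH2A1, had -0.97 in the authors' deposited table (adjusted p = 0.52). H1f0, a linker histone known to accumulate in cells that have stopped dividing, had a deposited Wald statistic of -0.29 (adjusted p = 0.88, mean 2743). H1fx, a further linker histone gene, had 2.42 with an adjusted p of 0.057 as deposited. H3f3c, which GENCODE M21 lists as a processed pseudogene, had 0.00 in the authors' deposited table (adjusted p = 1.0).

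**Figure D4:**
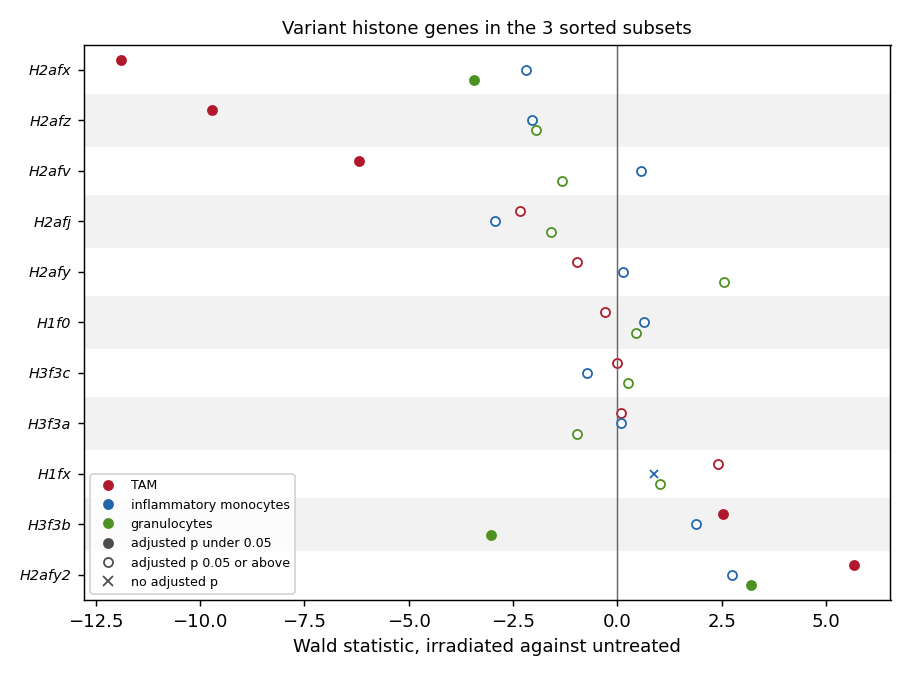
Wald statistics of the authors' deposited tables (x axis) for the 11 variant genes (y axis), coloured by subset. Filled points have an adjusted p under 0.05, open points 0.05 or above and the cross none; H2afx is lowest in TAM at -11.90, H2afy2 is above 0 in all 3 subsets, and H3f3b is filled right of 0 in TAM and left of 0 in granulocytes.

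In inflammatory monocytes of irradiated tumours, 3 of the 49 replicative genes fell and 1 rose, where 1.77% of all genes tested fell and 4.13% rose in the authors' deposited table. Only 27 of the 49 had an adjusted p. The 3 and the 1 are 6.12% and 2.04% of the replicative genes, against 1.32% and 3.07% of all 19539 genes in that table. The share that rose was thus not above that of all genes. The Wald statistic there was below 0 for 33 of the 49 (67.3%), with a median of -0.59, against 45.6% and 0.12 for all 19539 genes. Hist1h2ab fell with a deposited log2 fold change of -2.40 (Wald -4.05, adjusted p = 0.0032), Hist1h1e with -1.16 (Wald -3.17, adjusted p = 0.034) and Hist1h4d with -0.81 (Wald -3.14, adjusted p = 0.036). Adjusted over every gene with a p-value, only Hist1h2ab of these 3 stayed under 0.05. Hist1h2bc, an H2B gene with no stem-loop match, rose with a deposited log2 fold change of 1.18 (Wald 5.42, adjusted p = 1.9e-05, mean 570). It was the only replicative gene to rise in any of the 3 tables. Of its 50-base words, 30.6% also occur in transcripts of other genes.

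None of the 11 variants rose or fell in inflammatory monocytes in the authors' deposited table by DESeq2's Wald test, and 10 of them had an adjusted p. Without adjustment, 4 had a p under 0.05. H2afj had a deposited Wald statistic of -2.94 (adjusted p = 0.054), H2afy2 had 2.76 (adjusted p = 0.076), H2afx had -2.19 (adjusted p = 0.19) and H2afz had -2.05 (adjusted p = 0.23). The deposited Wald statistics of the remaining variants were 1.88 for H3f3b, 0.89 for H1fx, 0.65 for H1f0, 0.58 for H2afv, 0.14 for H2afy, 0.08 for H3f3a and -0.72 for H3f3c.

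In granulocytes of irradiated tumours, 4 of the 49 replicative genes fell and 0 rose, where 9.9% of all genes tested fell and 7.32% rose in the authors' deposited table. These 4 are 8.16% of the replicative genes, close to the 7.94% of all 19539 genes that fell. The Wald statistic there was below 0 for 35 of the 49 (71.4%), with a median of -0.78, against 52.7% and -0.10 for all 19539 genes. Hist1h2ab had a deposited log2 fold change of -3.01 (Wald -4.31, adjusted p = 0.0005) and Hist1h2ae one of -1.97 (Wald -3.93, adjusted p = 0.0018). Hist1h3a, an H3 gene with a mean of 3.96, had a deposited value of -2.66 (Wald -3.77, adjusted p = 0.0029). Hist1h4d had a deposited value of -0.93 (Wald -3.35, adjusted p = 0.0092). The H1 genes passed no test in this subset, with deposited adjusted p-values of 0.065 for Hist1h1a, 0.068 for Hist1h1b, 0.21 for Hist1h1e, 0.53 for Hist1h1c and 0.68 for Hist1h1d.

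Of the 11 variants, 2 fell (18.2%, against 9.9% of all genes tested) and 1 rose (9.09%, against 7.32%) in granulocytes. In the authors' deposited table H2afx fell with a value of -0.66 on the log2 scale (Wald -3.44, adjusted p = 0.0073), and H3f3b with -0.46 (Wald -3.03, adjusted p = 0.021). H2afy2 rose with a deposited value of 1.48 (Wald 3.20, adjusted p = 0.014). H2afy had a deposited Wald statistic of 2.57 (adjusted p = 0.056), H2afz had -1.95 (adjusted p = 0.17), H2afj had -1.59 (adjusted p = 0.29) and H2afv had -1.32 (adjusted p = 0.40). The statistics of H1fx (1.03), H1f0 (0.44), H3f3c (0.26) and H3f3a (-0.96) passed no test in that table.

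Across the subsets, Hist1h2ab and Hist1h4d fell in all 3 of the authors' deposited tables, Hist1h1e in TAM and inflammatory monocytes, and Hist1h2ae in TAM and granulocytes. A further 19 replicative genes passed in 1 table, and 26 in none. H2afx fell and H2afy2 rose in both TAM and granulocytes. H3f3b passed in both with opposite signs, which the authors' deposited tables give as a Wald statistic of 2.54 in TAM and -3.03 in granulocytes. A test of opposite directions, which takes the larger of both p-values and adjusts over all genes tested in both tables, gave H3f3b an unadjusted p of 0.011 and an adjusted p of 0.83, so the opposite directions were not established. That test called 15 of 15679 genes between TAM and granulocytes and 0 of 45 histone members, of which 1 had an unadjusted p under 0.05. Between TAM and inflammatory monocytes, and between inflammatory monocytes and granulocytes, it called 0 of 14506 genes each, and 0 of the 38 members had an unadjusted p under 0.05. Whether the size of a drop differs between subsets was not tested, since it needs standard errors that folds read as shrunken do not give.

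Many histone chaperone genes fell in TAM. This list and those that follow were chosen with earlier results of these data known. Of 22 histone chaperone genes, 15 fell (68.2%) and 3 rose (13.6%) in the authors' deposited table, with a median Wald statistic of -4.38 against 0.14 for all genes tested, of which 12.5% fell and 13.9% rose. Rbbp7, a histone-binding subunit of several chromatin complexes, had a deposited log2 fold change of -1.17 (adjusted p = 3e-17), and Asf1b, the H3-H4 chaperone of dividing cells, had -2.21 (adjusted p = 7.6e-16). Anp32e, which removes H2A.Z from chromatin, had a deposited value of -1.28 (adjusted p = 4.2e-15), and Nap1l1, an H2A-H2B chaperone, had -0.88 (adjusted p = 4.3e-12). The 3 that rose in TAM, named after their values were seen, were Daxx, which with Atrx deposits H3.3, and Cabin1 and Ubn2, of the HIRA complex that also deposits H3.3. Their deposited log2 fold changes were 0.89, 0.49 and 0.49, and Hira itself had -0.39 (adjusted p = 0.35). Atrx, with a deposited value of 0.00, and Ubn1, also of the HIRA complex, with 0.19 (adjusted p = 0.31), passed no test in TAM.

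In granulocytes 9 of the 22 chaperone genes fell (40.9%, against 9.9% of all genes tested) and 2 rose in the authors' deposited table, with a median Wald statistic of -1.97. The smallest deposited p-values there were those of Asf1b (log2 fold change -1.68), Nap1l1 (-0.66), Ipo4 (-1.0) and Anp32e (-0.79). Ipo4 is an importin that carries H3 and H4 to the nucleus. Daxx (1.26) and Cabin1 (0.59) rose, while Ubn1 fell (-0.52, adjusted p = 0.0043 as deposited). In inflammatory monocytes 3 of 22 fell (13.6%, against 1.77%) and 0 rose in the authors' deposited table. They were Nap1l1 (-0.56), Anp32e (-0.53) and Ssrp1, a subunit of the FACT chaperone (-0.43).

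Of 17 genes for the transcription and 3′ processing of histone mRNAs, 7 fell (41.2%, against 12.5% of all genes tested) and 1 rose (5.88%, against 13.9%) in TAM in the authors' deposited table. Slbp, which binds the stem-loop shown above, had a deposited log2 fold change of -0.60 (Wald -6.36, adjusted p = 1.3e-08). Ccne2 and Ccne1, the E cyclins that with Cdk2 activate NPAT, had deposited values of -2.29 and -1.92 (adjusted p = 1.8e-07 and 2.1e-06), and Cdk2 had -0.73 (adjusted p = 4.8e-05). Npat itself, the coactivator of histone genes, had a deposited value of -0.38 (adjusted p = 0.14). Lsm10, of the U7 particle that guides the cleavage, rose in that table with a value of 0.28 (adjusted p = 0.030), while its partner Lsm11 fell by 0.52 (adjusted p = 0.041). In inflammatory monocytes 1 of the 17 fell (5.88%, against 1.77%), Eri1, a nuclease that trims histone mRNA (-0.41 in the authors' deposited table, adjusted p = 0.027). In granulocytes 2 fell in the authors' deposited table, Ccne1 (-1.51) and Ccne2 (-1.45), a share of 11.8% that is near the 9.9% of all genes, and the value of Slbp was -0.20 (adjusted p = 0.17).

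Of 11 genes for H2A.Z exchange, 3 fell and 1 rose in TAM, 0 fell and 1 rose in inflammatory monocytes, and 3 fell and 1 rose in granulocytes in the authors' deposited tables. The 3 that fell are 27.3% of the list, against 12.5% of all genes tested in TAM and 9.9% in granulocytes, and each 1 that rose is 9.09%, against 13.9%, 4.13% and 7.32%. The median Wald statistics of the list were -0.47, -0.24 and 0.02, against 0.14, 0.11 and -0.14 for all genes tested, so the list as a whole lay near them. Actl6a, Ruvbl1 and Ruvbl2, subunits of several remodelling complexes, fell in TAM (-0.69, -0.83 and -0.61) and in granulocytes (-0.37, -0.64 and -0.65), as deposited. Znhit1, a subunit of the SRCAP complex that inserts H2A.Z, rose in each of the authors' deposited tables, with log2 fold changes of 0.36 for TAM, 0.43 for granulocytes and 0.35 for inflammatory monocytes. Srcap and Ep400, the catalytic subunits, passed in none, with deposited adjusted p-values in TAM of 0.51 and 0.99.

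Of 15 genes of H2AX signalling, 3 fell (20%) and 1 rose (6.67%) in TAM in the authors' deposited table, and 2 fell in granulocytes (13.3%). These shares are near the 12.5% and 13.9% of all genes in TAM and the 9.9% in granulocytes. Brca1, which is recruited to marked breaks, had a log2 fold change of -2.74 (adjusted p = 1.5e-05), Mdc1, which binds phosphorylated H2AX, had -0.55 (adjusted p = 0.014) and Nbn, of the break-sensing MRN complex, had -0.52 (adjusted p = 0.022), all as deposited. Ppm1d, a phosphatase that acts on phosphorylated H2AX, rose with a deposited value of 0.39 (adjusted p = 0.046). In inflammatory monocytes 0 of the 15 passed in the authors' deposited table, and the 2 with the highest means, Ppp4c and Baz1b, had Wald statistics of -1.46 and 0.35. The 2 that fell in granulocytes in the authors' deposited table were Ppp4c, a phosphatase subunit (-0.37), and Brca1 (-1.54). Cenpa, the H3 variant of the centromere, whose symbol lies outside the families chosen, fell in all 3 of the authors' deposited tables, with log2 fold changes of -1.98 for TAM (adjusted p = 3.3e-16), -1.12 for granulocytes (adjusted p = 0.00015) and -0.95 for inflammatory monocytes (adjusted p = 0.0022).

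**Figure D5:**
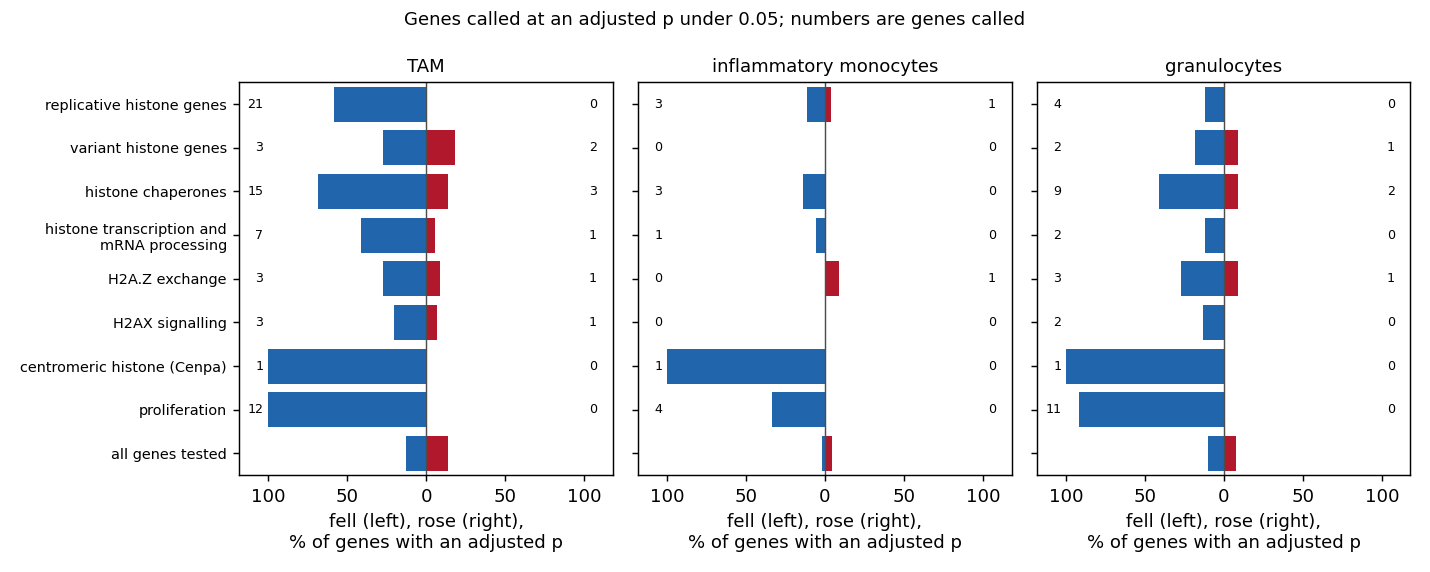
Share of the genes with an adjusted p (x axis, %) that fell (left, blue) or rose (right, red) in the authors' deposited tables, for the histone classes and each list (y axis), with the number of genes at the sides. All 12 proliferation genes fell in TAM, beside 21 replicative histone genes; the same counts were 11 and 4 for granulocytes and 4 and 3 for inflammatory monocytes.

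Genes of the cell cycle that mark proliferation fell too. Of 12 such genes, all 12 fell in TAM, 11 fell in granulocytes and 4 fell in inflammatory monocytes in the authors' deposited tables, and 0 rose in any. As shares of the list these are 100%, 91.7% and 33.3%, against 12.5%, 9.9% and 1.77% of all genes tested. The list was chosen with earlier results of these data known, so these shares are no independent test. Median log2 fold changes of this list, in the same order, were -2.51, -2.30 and -1.20. Mcm5, a subunit of the replicative helicase, fell in each table (-2.53, -1.92 and -0.96 as deposited, in that order again), and Pcna, the sliding clamp, fell in TAM by 0.81 with adjusted p = 7.1e-11 and had an adjusted p of 0.17 in granulocytes. In granulocytes 11 of 12 proliferation genes thus fell in the authors' deposited table beside 4 of 49 replicative histone genes, whose median count was 10.6, while the proliferation genes had means from 195 to 1044. The part of these counts in that gap was not tested.

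Some markers of other cells were called as well. In TAM 4 of 6 monocyte, 8 of 10 neutrophil, 1 of 4 neutrophil progenitor, 3 of 4 eosinophil, 1 of 8 macrophage and 1 of 6 epithelial or tumour cell markers rose in the authors' deposited table, and 3 of 4 dendritic cell, 2 of 4 T cell and 2 of 4 fibroblast markers fell. Of the 8 neutrophil markers counted as risen by their Wald statistic, 4 have a deposited log2 fold change of the other sign, S100a9 (-1.24, Wald 4.16), Camp (-0.77, Wald 8.66), Ngp (-0.59, Wald 9.20) and S100a8 (-0.05, Wald 2.99), and the median log2 fold change of that list is -0.21, so its direction in TAM is uncertain. In inflammatory monocytes 7 of 8 macrophage, 6 of 10 neutrophil, 2 of 4 eosinophil and 1 of 4 B cell markers rose there, and 0 of any marker list fell. In granulocytes 3 of 6 monocyte, 2 of 8 macrophage, 1 of 10 neutrophil, 1 of 4 neutrophil progenitor and 1 of 4 eosinophil markers rose, and 2 of 4 fibroblast markers and 1 of 4 T cell markers fell, as deposited by the authors. All other marker lists had no call in the subset. Of all genes tested, 13.9% rose and 12.5% fell in TAM, and 4.13% and 1.77% in inflammatory monocytes. In granulocytes 7.32% rose and 9.9% fell. Some lists lay near these shares, as did macrophage markers in TAM (12.5% rose) and neutrophil markers in granulocytes (10% rose). Means over all libraries were 0.351 for the eosinophil marker Epx and 0.197 for the epithelial marker Cldn4. Levels per group could not be had from these tables, and the part of other cells in the histone values was not tested.

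Histone genes resemble each other, so reads can fit several of them. How the authors counted such reads is not given in the sources used here. In the GENCODE M21 transcripts, the share of a member's 50-base words that also occur in transcripts of another gene had a median of 43.8% over the 49 replicative genes and 9.66% over the 11 variants. For genes named above it was 10.2% for Hist1h4d, 32.0% for Hist1h1e, 43.2% for Hist1h2ae, 58.0% for Hist1h2ab and 0% for Hist1h1b, which fell in TAM with no shared word. It was 9.66% for H2afx, 0% for H2afv, 69.6% for H2afz, 15.4% for H2afy2 and 8.4% for H3f3b. Hist1h4m, Hist1h2ai and Hist1h2ag, with 89.8%, 90.1% and 78.9%, are uncertain for this reason. The same limit holds for other called genes with high shares, such as H2afz and Hist1h2ab. Each share was taken over 1 annotated transcript, the longest with a stem-loop match where there was any. Bases after the stem-loop thus count in it. For Hist1h4d, 111 of 1089 words were shared, and 770 of its 1138 bases lie after the stem-loop. A low share over such a transcript does not show that its coding part has few shared words, which was not computed. Of the 7 replicative symbols listed at 0, the median share was 100%, as in Hist2h2aa1, Hist2h2aa2 and Hist2h3c1. A listing at 0 therefore does not show that a gene was silent.

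Around the threshold, the 3 genes just inside were Hist1h4f (mean 1.44), Hist1h2bn (1.40) and Hist1h4j (1.15), with deposited Wald statistics in TAM of -2.57, -2.92 and -1.12. The 3 just outside were Hist1h2an (0.975), Hist1h4b (0.789) and Hist1h2ad (0.69), with -1.73, -2.51 and 0.01 in the authors' deposited table. None of these 6 had an adjusted p. Of all replicative genes, 13 had none in TAM, and 12 of these had a deposited Wald statistic below 0, down to -4.35. The number without one was 22 for monocytes and 16 for granulocytes.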

How the data were processed

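The submitters' processing notes name fastp 0.20.1 and STAR 2.7.6a, then DESeq2 1.28.1 under R 4.0.2, and the build mm39 (GRCm39). Per the labels' protocols, picogram amounts of cDNA went into Nextera XT libraries, which keep no strand, so H3f3a and H3f3aos may share reads. How cDNA was primed, reads were counted and genes annotated is not given in the sources used here. Priming at poly(A) tails or elsewhere can change how much of a histone mRNA is read.

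The mean normalised count is a signal averaged by the authors over libraries. The authors' log2 fold changes were read as shrunken, which was not established. Some differ in sign from the Wald statistic, which shrinkage towards 0 alone would not produce. For such genes the fold and the statistic may not describe the same estimate. This was so for 6 members in some subset, none of them called there, and for 4 called neutrophil markers in TAM. As a score the authors deposited the Wald statistic, and their deposited p-values equal its two-sided normal p within 0.0021 on the log10 scale. The deposited adjusted p-values were used as they stand, and 41 libraries of 15 tumour numbers stand behind them. Depth per library is unknown, and the number of tumours limits the precision.

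Members and lists were chosen with earlier results of these data known. The text names every variant, up to 12 replicative genes per subset and direction with the smallest adjusted p, the 3 of highest mean with no call, up to 4 called genes per list and subset (or 2 of highest mean), and the 3 genes on each side of the threshold; other names were added after their values were seen. Both the Benjamini-Hochberg calls and the opposite-direction test were tested on simulated Wald statistics. These were independent between genes and subsets, unlike those of subsets that share tumour numbers. The simulation therefore checks the computation and not the calls in these data. Alternatives were other thresholds and count minimums, adjustment over all genes, rescaled or centred Wald statistics and the sign of the fold. Transcripts of GENCODE M21 and promoters of RefSeq belong to the earlier build, matched by symbol. Computations used Python 3.11.15, pandas 2.3.3, numpy 2.4.6, scipy 1.17.1 and matplotlib.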

Additional observations from a re-analysis of the deposited data

How the results depend on the processing

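Over the counts of replicative and variant members that rose or fell, the number that fell in TAM among replicative genes, 21, was 17 at an adjusted p under 0.01, 23 under 0.1, 21 with a fold filter (log2 fold change beyond 1 either way), 16 with a mean of at least 10, 22 with adjustment over every gene (19 of them among the 21, without Hist1h2ag and Hist1h4m) and 22 with the median Wald statistic taken off (all of the 21 among them). With Wald statistics divided by their robust SD, 0 histone members were called in any subset, where this setting called 0 of all genes in TAM and granulocytes and 25 in inflammatory monocytes. It takes most genes as unchanged, so it replaced 21, 3 and 2 calls in TAM (replicative lower, variant lower, variant higher), 3 and 1 in inflammatory monocytes (replicative lower and higher) and 4, 2 and 1 in granulocytes (replicative lower, variant lower and higher) by 0. The variants that rose in TAM, 2, were 1 at an adjusted p under 0.01, 1 with the fold filter, 1 with adjustment over every gene and 1 after centring, each time without H3f3b. Replicative genes that fell in inflammatory monocytes, 3, were 1 at 0.01 and 1 with adjustment over every gene. Variants in inflammatory monocytes, 0 in each direction, were 1 lower and 1 higher at 0.1, and 1 lower after centring. Replicative genes that fell in granulocytes, 4, were 7 at 0.1. Variants that fell there, 2, were 1 at 0.01 and 0 with the fold filter, and variants that rose, 1, were 0 at 0.01, 2 at 0.1 and 2 after centring. The test of opposite directions called 0 members under each of its alternatives. Of 37 calls of single members, 32 remained with adjustment over every gene, 36 after centring and 37 with direction from the fold. No paired analysis was possible because the tables hold no values of single libraries and untreated and irradiated tumours carry different numbers; for the same reason no replicate could be left out. Low counts limit what can be seen, as 13, 22 and 16 replicative genes had no adjusted p in TAM, inflammatory monocytes and granulocytes.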
